A study of Homo sapiens with 32 samples.

Results

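The genes described here encode the proteins of the cytosolic ribosome. They were chosen by name, as protein-coding autosomal genes of the GRCh37 annotation (GENCODE release 44 mapped to that build) that carry an RPL, RPS, RPLP or RPSA symbol of the family's numbering. Pseudogenes and the RPS6 kinases were left out. The rule gave 80 of 18594 protein-coding autosomal genes (63786 genes of all kinds were annotated), 49 of them for the large and 31 for the small subunit, and 6 genes of the family on the sex chromosomes lay outside it.

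A ribosome holds 1 copy of nearly every one of these proteins, so that dividing cells make their mRNAs in large and similar amounts. Most of these mRNAs are short and start with a run of pyrimidines at the cap, the terminal oligopyrimidine (TOP) motif through which their translation is controlled. Many of the genes also carry small nucleolar RNAs (snoRNAs), guides of rRNA modification, inside their introns, and the family has left numerous processed pseudogenes in the genome.

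RNA contacts were measured by iCLIP, in which UV light crosslinks protein to RNA in living cells and the crosslinked base is read from where reverse transcription stopped. A tag is 1 deduplicated cDNA assigned to its crosslinked base. The cells were HEK293T FlpIn, a widely used immortal line from human embryonic kidney whose genome holds a docking site for a single transgene. Alyref and Chtop, subunits of the TREX complex that prepares mRNA for nuclear export, and Nxf1, the export receptor that carries mRNA through the nuclear pore, were each expressed with a FLAG tag from a stable inducible line and precipitated through the tag. Induction lasted 48 h, with tetracycline at 10 ng/mL in the Alyref and Chtop lines and 5 ng/mL in the Nxf1 line, and the FLAG-only Control (dose not given in the sources used here) gives the background of the procedure. Each group had 3 libraries, merged from 8 lane runs per group. The labels do not say that replicates were separate cultures, so p-values measure the spread between these libraries, which may be technical.

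Alyref and Chtop libraries held 47052 to 631704 tags, Nxf1 libraries 8134 to 179346 and Control libraries 7017 to 46628, with replicate 1 the shallowest in each group. A count of 0 allowed up to 4.75 to 36.9 CPM (counts per M, the tags of a gene scaled to the library's total) in Alyref, 5.57 to 63.8 in Chtop, 16.7 to 369 in Nxf1 and 64.3 to 428 in the Control. Of the genes used to check the cell line, LIN28B had 63 exonic tags over the 12 libraries, NEFL 40, INA 20 and PAX2 16, while NEFM had 0. Of the genes of other cell types, PTPRC and ALB had 1 tag each and HBB had 12.

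Exons of the 80 genes took a small share of all tags, larger with Alyref than with Chtop in every library. Their exonic tags numbered 168, 1574 and 1293 in Alyref replicates 1, 2 and 3, or 0.207%, 0.249% and 0.214% of the library. In Chtop they numbered 49, 652 and 359, or 0.104%, 0.121% and 0.0836%. All 3 Alyref libraries lay above all 3 Chtop libraries.

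The Nxf1 libraries differed widely among themselves. Exonic tags of the family numbered 8, 717 and 456 there, or 0.0984%, 0.602% and 0.254% of the library, and 13, 48 and 42 in the Control, or 0.185%, 0.103% and 0.114%. Nxf1 2 and Nxf1 3 lay above every other library, while Nxf1 1, with 8 tags, lay below every Control library.

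Set against exonic tags of protein-coding genes alone, the order of the groups changed. The family held 0.553%, 0.591% and 0.607% of such tags in Alyref and 0.297%, 0.243% and 0.149% in Chtop. It held 0.228%, 2.04% and 1.77% in Nxf1 and 0.581%, 0.753% and 1.44% in the Control. The Alyref share was thus not above the Control on this scale, where 95% Wilson intervals reached from 0.34% to 0.991% in Control 1 and from 1.07% to 1.94% in Control 3 (counting error only). Exons of protein-coding genes made up 38.3% ± 3.51 (SD, n = 3) of Alyref tags, 47.0% ± 10.7 of Chtop tags, 29% ± 14.4 of Nxf1 tags and 17.8% ± 12.5 of Control tags.

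The 78 genes for mitochondrial ribosomal proteins, which build the ribosome of the mitochondrion, moved less. They held 0.283% to 0.327% of protein-coding exonic tags in Alyref, 0.185% to 0.236% in Chtop, 0.228% to 0.492% in Nxf1 and 0.223% to 0.345% in the Control. Alyref again lay above Chtop in every library, and the Nxf1 range overlapped Alyref in both gene sets.

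**Figure D1:**
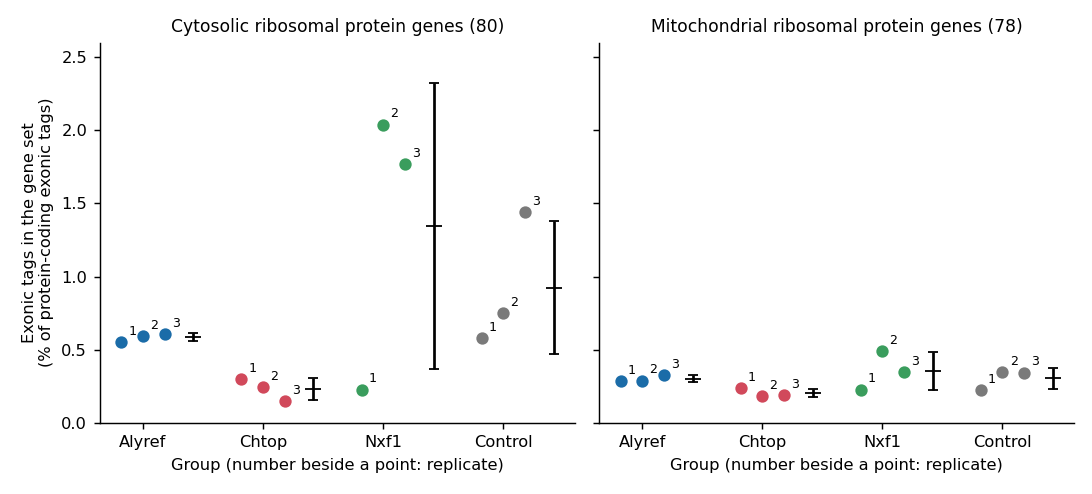
Exonic tags of the gene set as a percentage of exonic tags of protein-coding genes (y axis, linear), by group (x axis), for the 80 cytosolic (left) and the 78 mitochondrial ribosomal protein genes (right). Points are libraries, numbered by replicate, and bars are the mean with its SD (n = 3). On the left Alyref spans 0.553% to 0.607% and Chtop 0.149% to 0.297%, while Nxf1 runs from 0.228% to 2.04%.

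In both subunits each Alyref library lay above each Chtop library. Large subunit mRNAs had 17.6, 20.1 and 17.1 CPM per kb of exon in Alyref, 9.60, 10.7 and 7.06 in Chtop and 9.52, 46.8 and 19.9 in Nxf1. Small subunit mRNAs had 20.0, 26.6 and 23.3 CPM per kb in Alyref, 8.49, 10.9 and 8.24 in Chtop and 7.02, 68.3 and 28.5 in Nxf1. The small subunit level was the higher one in each Alyref library, in replicates 2 and 3 of Chtop and Nxf1 and in Control 3. The Control levels, 20.2, 9.41 and 9.07 CPM per kb for the large and 8.14, 8.57 and 12.4 for the small subunit, overlapped each other. In bulk lysates, more of an mRNA, more cells that express it and more factor on each molecule cannot be told apart.

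Tags were spread over the whole family. Each of the 80 genes had an exonic tag in Alyref, 78 had one in Chtop, 76 in Nxf1 and 54 in the Control, and 76 had one in each factor. The 12 genes with most tags in a group held 36.0% of the family's tags in Alyref, 40.5% in Chtop and 39.4% in Nxf1. In the Control the median gene had 1 tag, and 73 genes had no more than 3.

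RPS16, a small subunit protein near the decoding centre, led by tags, with 229 over the 12 libraries (ENSG00000105193, chr19:39923777-39926589, minus strand). Its levels were 123, 93.4 and 84.5 CPM in Alyref, 21.3, 46.4 and 46.6 in Chtop, 0, 277 and 151 in Nxf1 and 143, 21.4 and 27.0 in the Control. Alyref lay above Chtop in every library and the 2 deeper Nxf1 libraries lay above both factors, while the single tag of Control 1 alone gave 143 CPM. RPS19, a small subunit protein mutated in Diamond-Blackfan anaemia (ENSG00000105372, chr19:42364325-42376993, plus strand), had 49.2, 98.1 and 87.9 CPM in Alyref and 0, 29.7 and 16.3 in Chtop. It had 0, 285 and 117 CPM in Nxf1 and 0, 21.4 and 81.1 in the Control. Alyref and Chtop did not overlap at this gene, and Nxf1 spanned both.

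RPL4, RPL37, RPL13 and RPL10A, all of the large subunit, followed with 204, 201, 191 and 174 tags. RPL10A differed in its pattern, with 110.7, 72.8 and 102.8 CPM in Alyref, 42.5, 50.1 and 21.0 in Chtop and 123, 58.7 and 44.6 in Nxf1. At RPL10A the 2 deeper Nxf1 libraries were thus below Alyref. RPL5 (125 tags), RPL3 (111) and RPS2 (112) of the ribosome body and the stalk base RPLP0 (109) completed the 12 together with RPL7L1 (115).

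RPL7L1, a paralog of RPL7 that acts in ribosome assembly, was the only one of the 12 with most tags in Chtop. Its levels were 24.6, 25.3 and 33.2 CPM in Alyref, 0, 59.4 and 67.5 in Chtop, 0, 75.5 and 16.7 in Nxf1 and 142.5, 0 and 81.1 in the Control. The 2 deeper Chtop libraries lay above the Alyref libraries, but Chtop 1 had 0 tags, which allows up to 63.8 CPM.

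**Figure D2:**
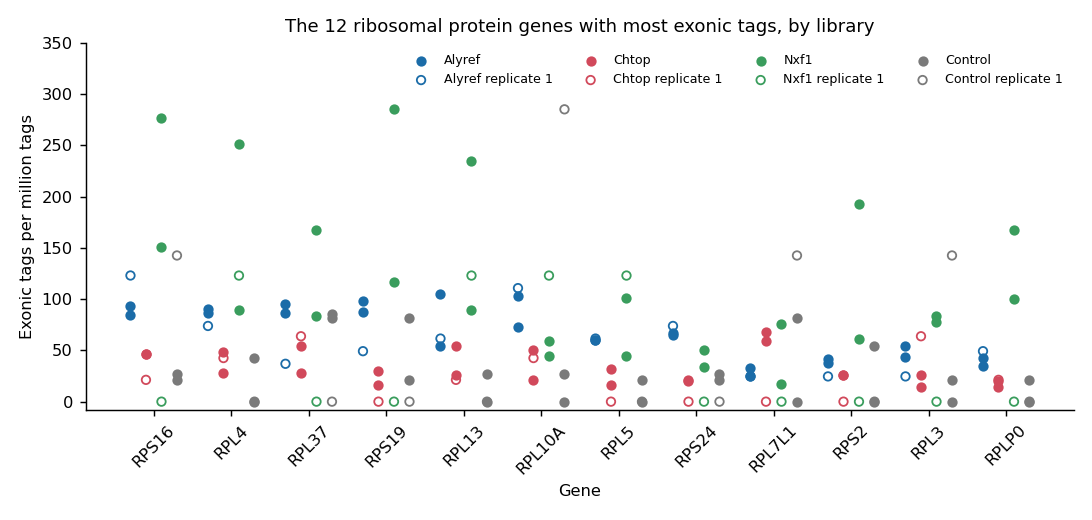
Exonic tags in CPM (y axis, linear) for the 12 ribosomal protein genes with most exonic tags (x axis), by library. Filled points are replicates 2 and 3, open points the shallow replicate 1; Nxf1 2 reaches 285 CPM at RPS19, and 1 or 2 tags in Control 1 already give 143 or 285 CPM.

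Per kb of exon, RPS16 had the highest mean level over the factor libraries, 148 CPM per kb, followed by RPS21 (98.6), RPL10A (96.9) and RPL18 (79.9). The lowest were RPL3L, RPL10L, RPS27L, RPL22L1 and RPL14. RPL3L, the striated muscle paralog of RPL3, had 2 tags and RPL10L, the testis paralog of RPL10, had 1. RPL26L1 had 2 and RPL39L 7. The 7 paralog genes together had 67 Alyref, 73 Chtop, 20 Nxf1 and 7 Control tags, most of them in RPL7L1. RPL14 is annotated with a 3′ UTR of 7136 nt and RPL37 with one of 7573 nt, which lowers their values per kb and that of the large subunit.

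Reads were kept only where they aligned uniquely, so a read that matches a pseudogene or another gene equally well gives no tag. A median of 46.5% of the 30-base words in an exon of these genes occurred once in the genome (range 0 to 94.8%, with more shared than unique words in 43 genes), against 98.8% for mitochondrial ribosomal protein genes and 99.5% for other protein-coding genes. RPL21 had no unique word and had 10 tags. The words were taken inside single exons and do not cover longer or spliced reads. Across the 80 genes the unique share and the CPM per kb over the factors had a Spearman correlation of -0.10, as a description over genes of the same libraries. Levels per kb of the 80 genes correlated between Alyref and Nxf1 (Spearman 0.86), Alyref and Chtop (0.72) and Chtop and Nxf1 (0.66), again over genes that share their libraries, lengths and mappability.

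Against the Control, few single genes could be told from background at this depth. Tests used edgeR's quasi-likelihood F-test with Benjamini-Hochberg adjustment over all genes tested. With the filter on low counts by group, 967 genes entered the fit and 7 of the 80 did, among them RPS16, RPS19, RPL37, RPS2, RPL18 and RPL7A. None of the 7 passed in Alyref, Chtop or Nxf1 against the Control by edgeR, where 3.41%, 15.4% and 0% of all genes tested did. At an unadjusted p under 0.05 the counts were 0, 2 and 2, and DESeq2 called 0, 2 (lower in Chtop) and 0. In Chtop against the Control, edgeR called 2 without any one of the Alyref libraries, Chtop 1, Nxf1 1 or Nxf1 3 and 1 without Nxf1 2. In Nxf1 against the Control it called 3 without Nxf1 1.

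A filter on the total, at least 20 exonic tags over the 12 libraries, was added after the data had been seen and let in 9915 genes and 71 of the 80. Among the 9 left out were RPL10L, RPL3L, RPL26L1, RPL39L, RPL21, RPS26 and RPL22L1. In Alyref against the Control 0 of the 71 passed by edgeR (10 at an unadjusted p under 0.05, 0 by DESeq2), while 5% of all genes did. In Nxf1 5 were higher (0.333% of all genes were), RPL13, RPS16, RPL4, RPLP0 and RPLP1. The edgeR log2 change was 4.22 ± 1.01 (SE, adjusted p 0.024) for RPL13, which had 122.9, 235 and 89.2 CPM in Nxf1 and 0, 0 and 27.0 in the Control. It rests on a single Control tag, and without Control 3, where that tag lies, the fitted value was 8.74. RPLP1, a stalk protein, had 0, 142.6 and 55.8 CPM in Nxf1 and no Control tag, so no fold is given. DESeq2 called 0 of these. By edgeR 0 were left without Chtop 2, Nxf1 2, Nxf1 3 or any one Control library, 2 without Alyref 2 and 1 without Alyref 3.

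In Chtop against the Control 1 gene was lower, RPL35A of the large subunit, where 1.41% of all genes were lower. RPL35A had 1, 1 and 0 tags in Chtop and 2, 1 and 1 in the Control, a log2 change of -4.29 ± 1.32 (edgeR, adjusted p 0.019), and the count went to 0 without Chtop 2, Chtop 3 or any one Control library. The side of 0 on which the family fell against the Control differed between the tools: in Alyref 63 of the 71 changes were above 0 by edgeR and 25 by DESeq2, and in Chtop 31 and 0. With all tags as library size in edgeR they were 61 and 37.

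Between the factors the family stood on one side. Alyref was higher than Chtop at 3 of the 7 genes that passed the filter by group (13.5% of the 967 genes were higher): RPS19 with a log2 change of 2.36 ± 0.47 (edgeR, adjusted p 0.00035), RPS16 with 1.44 ± 0.34 (0.0019) and RPL37 with 1.32 ± 0.46 (0.028). With the filter on the total, 41 of 71 were higher and 0 lower, against 8.44% of all genes. Among them were RPS24 (2.06 ± 0.43, adjusted p 0.00012), RPS9 (2.65 ± 0.58, adjusted p 0.00031), RPS3 (2.18 ± 0.49, adjusted p 0.0004) and RPL10A (1.6 ± 0.36, adjusted p 0.00047). RPS9 and RPS3 sit at the mRNA entry side of the small subunit. RPS9 had 12.3, 41.2 and 39.8 CPM in Alyref and 42.5, 7.43 and 2.33 in Chtop, where the 42.5 rests on 2 tags. RPS3 had 73.8, 53.8 and 36.5 CPM in Alyref and 0, 16.7 and 9.31 in Chtop, with no overlap.

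The median log2 change of Alyref over Chtop was 1.51 over the 71 genes and 0.01 over all genes tested, and 69 of the 71 lay above 0, against 4989 of 9915. RPL7L1 (-0.68) and RPL15 were the 2 below. Scaling by all tags of a library in place of TMM shifted the median of all genes to -0.31, and 21 of the 71 passed. DESeq2 called 4. The count of 41 fell to 20 without Alyref 2 and to 15 without Alyref 3 or without Chtop 3. The count of 3 of the filter by group became 5 to 9, with more genes passing the filter, without Alyref 1, Chtop 1, Chtop 2, Nxf1 1, Nxf1 3 or any one Control library.

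Nxf1 was higher than Chtop over most of the family. All 7 genes that passed the filter by group were lower in Chtop, where 21.2% of the 967 genes were, with log2 changes from -4.42 ± 0.51 at RPS19 (edgeR, adjusted p 5.4e-08) and -3.59 ± 0.39 at RPS16 (adjusted p 1.6e-08) to -2.82 ± 0.54 at RPL37 (adjusted p 0.00018). That filter asks for a minimum level within the exonic tags of some libraries, which a gene can reach by being high in Nxf1. Entry thus favoured the direction found, and the count of 7 is not independent evidence for it. With the filter on the total, 51 of 71 were lower in Chtop and 0 higher, against 5.96% of all genes. RPLP0, which anchors the stalk where elongation factors dock, changed by -3.52 ± 0.50 (edgeR, adjusted p 3.4e-10). It had 21.3, 20.4 and 14.0 CPM in Chtop, 0, 168 and 100.4 in Nxf1 and 49.2, 42.7 and 34.8 in Alyref. The 2 deeper Nxf1 libraries lay above every Alyref and Chtop library, and the 0 of Nxf1 1 allows up to 369 CPM.

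The other stalk proteins, RPLP1 (-3.39 ± 0.57, edgeR, adjusted p 2.6e-07) and RPLP2 (-2.71 ± 0.75, adjusted p 0.0045), were lower in Chtop than in Nxf1 as well. The median over the 71 was -2.62, against 0.43 over all genes, and 2 of the 71, RPS27L and RPL22, lay above 0. DESeq2 called 55 and scaling by all tags 39, with the median of all genes at 1.17. Without Nxf1 2 the count of 51 was 24. The count of 7 rose to between 11 and 19 without any one library except Nxf1 2.

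Nxf1 was also higher than Alyref, at fewer genes. With the filter by group 5 of the 7 were lower in Alyref (15.8% of the 967 genes were): RPS16 (-2.15 ± 0.34, edgeR, adjusted p 3.3e-05), RPS19, RPL37, RPS2 and RPL18. Since genes high in Nxf1 enter through this filter more easily, the count of 5 has the same limit. With the filter on the total, 20 of 71 were lower and 0 higher, against 3.28% of all genes, led by RPLP0 (-2.06 ± 0.43, adjusted p 0.00015), RPS2 (-1.94 ± 0.44, adjusted p 0.00071) and RPS6 (-1.99 ± 0.45, adjusted p 0.00081), the small subunit protein phosphorylated by S6 kinases. The median was -1.17, against 0.40 over all genes. This comparison rested on few libraries. The count of 20 was 1 without Nxf1 2, 8 without Alyref 2, 10 without Alyref 3 and 12 without Nxf1 3, and DESeq2 called 11. Scaling by all tags moved the median of all genes to 0.82 and left 5. The count of 5 was 1 without Nxf1 2, 3 without Nxf1 3 and 10 to 17 without Alyref 1, Nxf1 1 or any one Chtop or Control library. The 3 comparisons between factors share their libraries, so their results are not independent of each other.

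With no filter all 80 genes were tested, and the counts were 21 higher in Alyref than in Chtop (1.57% of all 24193 genes were), 9 lower in Alyref than in Nxf1 (0.98%) and 41 lower in Chtop than in Nxf1 (2.28%). Leaving out Nxf1 1 and Control 1 together gave 41, 27 and 57 of 71. Tags of the mitochondrial genome made up 0.133% to 0.214% of Alyref libraries, 0.058% to 0.206% of Chtop, 0.335% to 0.546% of Nxf1 and 0.271% to 0.523% of Control libraries. They were thus highest in Nxf1 2, where the family's share was also highest, and their part in the result was not tested.

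**Figure D3:**
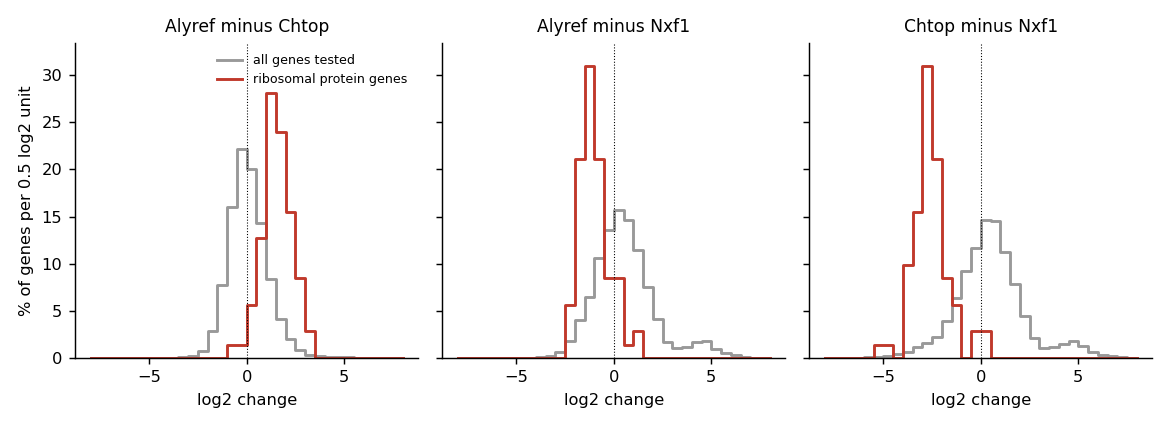
Distribution of the edgeR log2 change in exonic tags (x axis) over 71 ribosomal protein genes (red) and over all 9915 genes tested (grey), as the percentage of genes per bin of 0.5 (y axis, linear), in 3 panels for Alyref minus Chtop, Alyref minus Nxf1 and Chtop minus Nxf1. The red medians stand at 1.51, -1.17 and -2.62 and the grey ones at 0.01, 0.40 and 0.43.

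Lists of related genes were read in the same fit. Over all genes tested 8.44% were higher and 7.07% lower in Alyref than in Chtop, 5.56% higher and 3.28% lower in Alyref than in Nxf1, and 8.3% higher and 5.96% lower in Chtop than in Nxf1. Of 22 other mRNAs with a TOP motif, 11 were higher in Alyref than in Chtop and 0 lower, among them HNRNPA1 (1.97 ± 0.32, adjusted p 3.1e-07), RACK1, a ribosome-bound scaffold (1.77 ± 0.33), and NACA, of the nascent chain complex (1.75 ± 0.44). Of the same 22, 13 were lower in Chtop than in Nxf1 and 0 higher, led by the elongation factors EEF1A1 (-2.97 ± 0.43, edgeR, adjusted p 1.4e-09) and EEF1G (-3.24 ± 0.65). In Alyref against Nxf1, 1 was higher and 3 were lower. The medians of the list were 1.21, -1.77 and -0.45 for the 3 comparisons in that order.

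Of 26 ribosome assembly factors, whose mRNAs mostly lack the motif, 7 were higher in Alyref than in Chtop (NOP56 1.28 ± 0.30, UTP4 1.91 ± 0.38) and 2 were lower in Chtop than in Nxf1, the methyltransferase FBL (-2.88 ± 0.61) and SNU13. Against Nxf1, 2 were higher and 1 was lower in Alyref. Of 47 mitochondrial ribosomal protein genes, 7 were higher in Alyref than in Chtop and 0 lower, while 1 was higher and 3 were lower in Chtop than in Nxf1, and 2 were higher in Alyref than in Nxf1. Against Nxf1 the counts of the assembly factors and of the mitochondrial genes lay near or under the shares over all genes. Of 14 snoRNA host genes outside the family, 7 were higher in Alyref than in Chtop, led by GAS5 (3.4 ± 0.51, adjusted p 6.2e-08), 3 were lower in Chtop than in Nxf1, and 1 was higher and 1 lower in Alyref than in Nxf1. RACK1, EIF4A2, EEF1B2, TPT1 and EEF2 stand on both the TOP and the host list, and NCL on both the assembly and the host list. In the family itself the medians were 1.51, -2.62 and -1.17.

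Along the mRNA, tags in the family crowded at the 5′ end. The bases with most factor tags, at most 1 per gene, are shown because 8 of the 10 lay in a 5′ UTR, most of them at the first bases of the mRNA. Each line gives the crosslinked base in a capital with 10 bases on either side, 5′ to 3′ on the gene's strand in GRCh37, and the upstream bases of those at mRNA position 1 to 10 reach into the promoter.
RPS16, chr19:39926578-39926598, minus strand: cctagctttcCttttccggtt
RPS10, chr6:34393835-34393855, minus strand: atgctccttcCtttccagccc
RPL27A, chr11:8704329-8704349, plus strand: gaaggccttcCtttttcgtct
RPL10A, chr6:35436174-35436194, plus strand: tgctagtctcTtttccggtta
RPSA, chr3:39448201-39448221, plus strand: tgccgcctgtCttttccgtgc
RPLP0, chr12:120636457-120636477, minus strand: gctcaacatcTcccccttctc

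RPS16 had 7 tags, all Alyref, at mRNA base 2, and RPS10 had 5 Alyref and 2 Nxf1 tags at base 2. RPL27A had 6 Alyref tags at base 1, RPL10A 6 at base 7, and RPSA 2 Alyref and 3 Nxf1 tags at base 1. In each of these the capital stands inside a run of C and T. None of the 10 bases had a Control tag, which says little about background. The bases were picked by factor tags, and the Control had 103 exonic tags in the family against 3035 in Alyref. RPLP0 was the exception shown for contrast, with 4 tags, all Nxf1, inside the coding part of exon 6. Also among the 10 were RPS29 and RPL4 in the 5′ UTR and RPS24 in coding exon 2, with 4 tags each. These bases are the extremes of thinly spread tags: with the 3 libraries of a group pooled, 82.4% of the family's Alyref tags, 95.5% of Chtop, 94.8% of Nxf1 and 98.1% of Control tags were alone at their base.

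Most members start with such a run. The first 5 bases of the canonical mRNA were C followed by 4 pyrimidines (C or T, read on the gene's strand only) in 56 of the 80 genes, or 70.0%, against 6.41% of mitochondrial ribosomal protein genes and 4.30% of other protein-coding genes. First exons were short, with a median of 42 nt against 111 and 190 nt, and 5′ UTRs made up 4.44% of the family's exon length.

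The first 10 nt of these mRNAs held 11.3%, 9.02% and 9.67% of the family's exonic tags in Alyref, 6.12%, 3.83% and 1.39% in Chtop, 12.5%, 6.97% and 6.36% in Nxf1 and 7.69%, 10.4% and 7.14% in the Control. Alyref lay above Chtop in every library and overlapped the Control. Over pooled libraries of other protein-coding genes the same window held 0.518% in Alyref, 0.182% in Chtop, 0.378% in Nxf1 and 0.430% in the Control.

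The start sequence split the family. The 56 genes that start with C and 4 pyrimidines had 254 of 2252 Alyref tags in the first 10 nt, or 11.3%, 28 of 729 Chtop tags (3.84%), 80 of 912 Nxf1 tags (8.77%) and 6 of 72 Control tags (8.33%). The 24 with other starts had 32 of 783 Alyref tags (4.09%), 5 of 331 Chtop tags (1.51%), 0 of 269 Nxf1 tags (0%) and 3 of 31 Control tags (9.68%). In Alyref 2 and Alyref 3 the first kind had 10.8% and 12% and the second 3.6% and 3.21%, but in Alyref 1 they had 10.3% and 13.7% (12 and 7 tags). For Nxf1, 80 tags against 0 came almost wholly from replicates 2 and 3. The 793 other protein-coding genes with such a start had 1.01% of their Alyref tags there and 0.880% of their Nxf1 tags, against 0.491% and 0.345% in the genes with other starts. In the 10 nt upstream of the annotated start, the 56 family genes had 66 Alyref, 18 Chtop, 22 Nxf1 and 3 Control tags. The 24 with other starts had 12, 6, 7 and 0 there, so the 0 of Nxf1 holds only downstream of the annotated start. The annotated start base decides which genes fall on which side, and the windows were chosen after the data had been seen.

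The 5′ UTR held 27.4%, 21.7% and 20.7% of the family's exonic tags in Alyref, 12.2%, 12.9% and 6.41% in Chtop and 12.5%, 16.2% and 12.7% in Nxf1. All 3 Alyref libraries lay above all Chtop and Nxf1 libraries. The Control, at 15.4%, 20.8% and 21.4% of 13, 48 and 42 tags, overlapped Alyref. In other protein-coding genes the 5′ UTR took 7.90% ± 0.17 (SD, n = 3) in Alyref, 5.41% ± 0.25 in Chtop, 5.77% ± 0.58 in Nxf1 and 7.31% ± 0.53 in the Control.

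In the 3′ UTR the order of Alyref and Chtop was reversed. It had 10.1%, 10.5% and 12.4% of the family's tags in Alyref, 20.4%, 23% and 27.0% in Chtop, 0%, 9.62% and 12.1% in Nxf1 and 15.4%, 18.8% and 26.2% in the Control. Chtop did not overlap Alyref or Nxf1, although the 0% of Nxf1 1 rests on 8 tags. In other protein-coding genes the shares were 28.4% ± 1.28 in Alyref, 45.3% ± 1.89 in Chtop, 45.7% ± 0.67 in Nxf1 and 40.8% ± 8.92 in the Control, so that the family had fewer tags there in each group. By annotation, 3′ UTRs made up 59.0% of the family's exon length and 47.5% of that of other genes.

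The coding sequence took the rest, 65.8% ± 2.85 in Alyref, 66.0% ± 1.69 in Chtop, 79.0% ± 7.40 in Nxf1 and 60.7% ± 8.43 in the Control, although it is 36.6% of the family's exon length. The Nxf1 libraries (74.2% to 87.5%) lay above the Alyref and Chtop libraries and above the Control (52.4% to 69.2%). The 87.5% is that of Nxf1 1, with 8 tags, and the share over the pooled Nxf1 libraries was 74.7%. In other genes the Nxf1 share, 48.5% ± 1.26, was below the Alyref share of 63.7% ± 1.25.

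**Figure D4:**
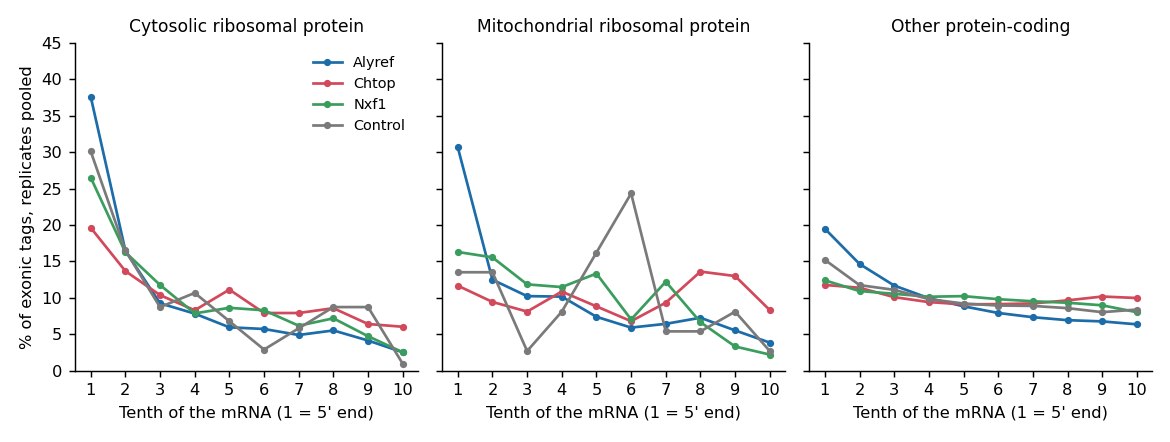
Percentage of exonic tags (y axis, linear) in 10 equal bins of the canonical mRNA counted from the 5′ end (x axis), with the 3 libraries of a group pooled into 1 line, for the 80 cytosolic ribosomal protein genes, the mitochondrial ones and other protein-coding genes in 3 panels. The lines of the family are highest in the first bin in every group. The mitochondrial Control line rests on few tags.

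In the family, the density of tags in the last exon relative to the first fell below 0 on the log2 scale in each library. It was -4.45, -4.14 and -4.0 in Alyref, -3.35, -2.48 and -1.02 in Chtop, -3.81, -3.58 and -3.04 in Nxf1 and -3.4, -3.49 and -2.98 in the Control. Densities are per annotated base, so long annotated 3′ UTRs, as in RPL14 and RPL37, lower the family's values. Alyref had the lowest values and did not overlap any other group. In other protein-coding genes the means were -1.30 ± 0.09 in Alyref, -0.08 ± 0.11 in Chtop, -0.19 ± 0.17 in Nxf1 and -0.73 ± 0.28 in the Control.

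At internal exon-exon junctions, 40.0%, 36.8% and 35.3% of the family's Alyref tags within 100 nt lay between -75 and -24 nt, the stretch just upstream of where the exon junction complex sits. Junctions were weighted equally, exons under 100 nt and the outer junctions being left out. Other protein-coding genes had 29.2% ± 0.64 in Alyref, below each library of the family. Mitochondrial ribosomal protein genes had 25.0%, 40.3% and 37% of 9, 86 and 74 Alyref tags and overlapped the family. The family had 32.4%, 25.0% and 26.0% in Chtop and 25.0%, 30.4% and 34.8% in Nxf1, where other genes had 25.4% ± 0.64 and 26.9% ± 0.74 and the Chtop and Nxf1 libraries of the family overlapped. Weighted by tags in place of junctions, the Alyref mean of 37.4% became 34.2%. The Control had 2, 8 and 6 such tags in the family, too few for a share.

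Middle exons under 100 nt carried more tags per base than longer ones in Alyref. The log2 ratio of densities was 0.94 ± 0.25 (SD, n = 3) in Alyref, 0.32 ± 0.15 in Chtop, 0.17 ± 0.56 in Nxf1 and 0.86 ± 0.28 in the Control. In other protein-coding genes it was 0.57 ± 0.01, -0.60 ± 0.23, -0.09 ± 0.34 and 0.33 ± 0.16. The crosslinked base was a uracil in 43.3% ± 2.71 of the family's Alyref tags, 43.2% ± 9.27 of Chtop, 36.3% ± 9.92 of Nxf1 and 44.9% ± 14.4 of Control tags, with overlap between all groups. Both Nxf1 means for the family give equal weight to Nxf1 1, which had 8 exonic tags there.

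In introns the factors differed less. The 359 introns of the family, leaving out the small RNAs inside them, had 64, 742 and 654 tags in Alyref, 28, 388 and 136 in Chtop, 7, 189 and 205 in Nxf1 and 12, 69 and 31 in the Control. Of the intronic tags of protein-coding genes the family held 0.318% ± 0.023 (SD, n = 3) in Alyref, 0.247% ± 0.047 in Chtop, 0.355% ± 0.062 in Nxf1 and 0.323% ± 0.115 in the Control, and each Chtop library lay below each Alyref and Nxf1 library while the Control overlapped all of them. RPL3L and RPL10L had no intronic tag, and RPL10L has 1 exon. RPS2 had the most per kb of intron, 70.5 over the 12 libraries (on 1206 nt, without the bases of small RNAs and of another annotated gene inside intron 3), followed by RPL7A (40.8), RPS16 (33.0), RPL13 (30.8) and RPL10A (28.9). RPS2 had 48 intronic Alyref, 22 Chtop, 11 Nxf1 and 4 Control tags.

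The balance between exons and introns differed in direction between the family and the bulk of genes. The median log2 change in the exon to intron ratio of Chtop over Nxf1 was -0.67 over 65 genes of the family with at least 10 exonic and 10 intronic tags in total (a filter added after the data had been seen), against 1.96 over all 9349 genes tested. Of Alyref over Nxf1 it was -0.46 against 0.99, and of Alyref over Chtop 0.12 against -0.90. For related lists the medians in the same order were -0.33, -0.33 and -0.11 over 20 other TOP mRNAs, 0.42, 0.12 and 0.19 over 14 snoRNA host genes, 0.56, 0.35 and -0.22 over 45 mitochondrial ribosomal protein genes and 1.45, 0.53 and -0.23 over 27 assembly factors. With the filter by group none of the 80 entered this fit. By edgeR 2 of the 65 were called lower in Chtop than in Nxf1, where 0.0535% of all genes were: RPL13A (adjusted p 0.033) and RPL35A (-3.89 ± 1.41, adjusted p 0.042), both of the large subunit. RPL13A had no intronic tag in any Nxf1 library, so no fold is given for it. No gene of the family was called in Alyref against Chtop (0.0535% of all genes were, 1 of the 65 at an unadjusted p under 0.05) or against Nxf1 (0.267%, 2 of the 65). Against the Control none was called in Alyref (0.128% of all genes, 1 of 65 unadjusted), Chtop (8.31%, 1) or Nxf1 (0%, 2). DESeq2 was not run with this filter.

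The 2 calls were not steady. Without Alyref 2, Alyref 3 or Chtop 3 there were 0, without Nxf1 3 there was 1, and without Chtop 2 or without Nxf1 2 there was 1 in the other direction. The value of RPL35A ran from -2.27 without Nxf1 2 to -9.58 without Nxf1 3, the library with all 5 of its intronic Nxf1 tags. RPL13A had 1, 9 and 2 exonic tags in Chtop and 0, 13 and 4 in Nxf1, and it was not called (adjusted p 0.13) when tags of small RNAs were kept in the introns. In exonic share per library, 62.7% to 72.5% of the family's exonic and intronic tags were exonic in Chtop and 53.3%, 79.1% and 69.0% in Nxf1. In other protein-coding genes the Chtop share was 61.2% to 77.3% and the Nxf1 shares were 63.6%, 43.4% and 26.9%. The family's Nxf1 share thus lay above that of other genes in replicates 2 and 3 and below it in replicate 1, where it rests on 15 tags.

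Of the 359 introns, 58 hold an annotated snoRNA or small Cajal body RNA, in 27 of the 80 genes. The 58 small RNAs had 1474 tags, and 55 of them had at least 1. Their level in CPM was 283, 611 and 545 in Alyref, 383, 766 and 44.2 in Chtop, 615, 495 and 346 in Nxf1 and 1283, 2381 and 1082 in the Control. Each Control library was above each factor library. SNORA62 in RPSA led with 72 tags, then SNORA10 in RPS2 and SNORA6 in RPSA with 55 each and SNORA7A in RPL32 and SNORD14A in RPS13 with 52 each.

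The intron sequence around them was also denser in tags than introns without a small RNA. With tags at bases of the small RNAs left out but those just upstream kept, the log2 ratio of tags per kb was 0.62, 0.87 and 0.95 in Alyref, 1.01, 1.38 and 1.18 in Chtop, 0.30, 0.42 and 0.50 in Nxf1 and 1.30, 1.98 and 2.22 in the Control. Nxf1 had the lowest values and did not overlap the other groups, although Nxf1 1 rests on 1 tag in such introns. The Control lay above Alyref and Nxf1 in each library and overlapped Chtop.

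A part of these tags sat directly upstream of the snoRNA. A tag is placed at the base before its read unless a deletion sets it. Tags 1 nt upstream thus stem, deletions apart, from reads that begin at the first base of the snoRNA. The leading intronic bases are shown because 6 of the 10 with most factor tags, at most 1 per gene, lay within 3 nt upstream of an annotated snoRNA. The capital again marks the crosslinked base.
RPL17, chr18:47018090-47018110, minus strand: ggaaagtatgGctgcgatgat
RPL27A, chr11:8706975-8706995, plus strand: gcttatgcttTgccgagacta
RPS13, chr11:17096282-17096302, minus strand: acatgaattgCtcactatgat
RPL3, chr22:39715109-39715129, minus strand: ctcgcagaaaCcacagatgat
RPS24, chr10:79795257-79795277, plus strand: atctccttttAggtcattgat

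The base in intron 1 of RPL17 was 1 nt upstream of SNORD58B and had 6 Alyref, 2 Chtop, 1 Nxf1 and 1 Control tags. Those in RPL27A, RPS13 and RPL3 were 1 nt upstream of SNORA45, SNORD14A and SNORD43, with 4 factor tags each. RPS24 is shown for contrast, with 6 Alyref tags at 2 nt from the end of intron 2, in the 3′ splice site. In all, 67 Alyref, 31 Chtop, 13 Nxf1 and 17 Control tags lay 1 to 5 nt upstream of a small RNA of the family, 55, 20, 8 and 8 of them at 1 nt. Without these tags, a choice made after they were seen, the log2 ratio was 0.55 ± 0.08 (SD, n = 3) in Alyref, 0.82 ± 0.36 in Chtop, 0.18 ± 0.11 in Nxf1 and 1.20 ± 0.10 in the Control. The Nxf1 libraries remained below all others.

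**Figure D5:**
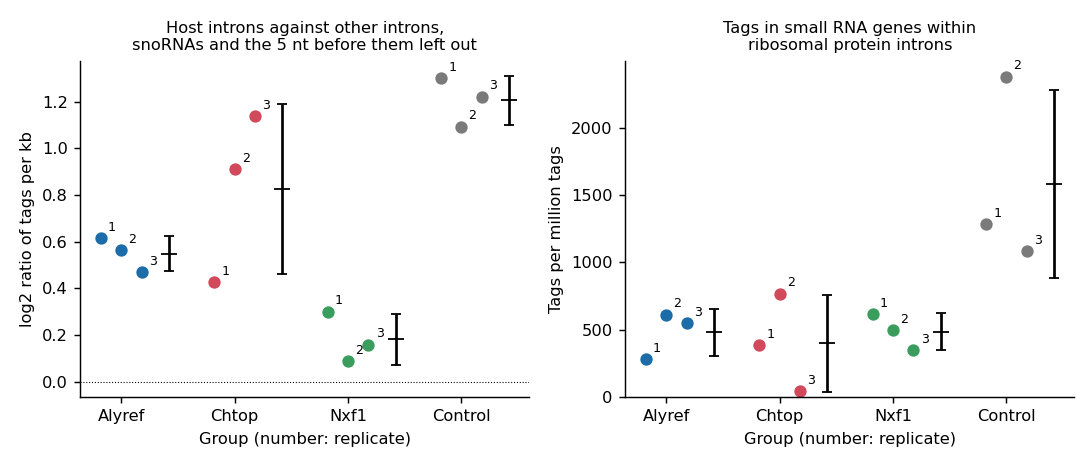
Left, log2 ratio of tags per kb in introns that hold a small RNA to other introns of the 80 genes, with the small RNAs and the 5 nt before them left out (y axis, linear). Right, tags in the small RNAs of these introns in CPM (y axis, linear). Points are libraries, numbered by replicate, and bars are the mean with its SD (n = 3); Nxf1 is lowest on the left and Control highest on the right.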

How the data were processed

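The iCLIP libraries came from HEK293T FlpIn cells that express Alyref-FLAG, Chtop-FLAG, Nxf1-FLAG or the FLAG tag alone (Control), with 3 per group. Per the submitters' processing notes, Bowtie 1.1.2, STAR 2.4.2a and UMI-tools 0.5.3 were used. As the study describes, the authors kept uniquely aligned reads on hg19, merged lanes, removed duplicates by random barcodes and took as crosslinked the most 5′ deletion of a read, or else the base before it. The deposited values are counts of deduplicated reads (tags) per base and strand for each library. The pooled columns per group were not used, and 0 columns of per-sample values were left over.

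Tags were assigned on their strand to exons of GENCODE release 44 (GRCh37) canonical transcripts and to introns, with small RNA genes counted apart and tags in more than 1 gene left out. Members of near-identical families are uncertain. Tests used edgeR 4.0.16 in R 4.3.3 (TMM, quasi-likelihood F-test, all 12 libraries in 1 fit, Benjamini-Hochberg over all genes tested, threshold 0.05), on exonic tags and on the exon to intron balance with library as a term. DESeq2 1.42.0 was an alternative, and so was the replicate number as a block: deviations of same-numbered Alyref and Chtop libraries correlated at 0.130 to 0.191 (3 pairs), and those of different numbers at -0.194 to 0.154. Fits were tested on simulated data, where Alyref-Chtop recovered 92.2% of 116 planted changes with the filter by group and 66% of 200 with that on the total. The balance fit with the filter by group recovered 39.3% of 28, so a lack of calls there is weak evidence of no change. The balance fit with the filter on the total was not simulated. Shares are given per library, and Wilson intervals at 95% and floors of 3 counts cover counting error only. Depth was 7017 to 631704 tags per library.

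The members and gene lists were chosen with earlier results of these data known. Named were the 12 members with most exonic tags, up to 5 called members per direction, comparison and fit, the paralogs and stalk proteins, members without tags, the 5 highest and 5 lowest per kb, the 5 with most intronic tags per kb, up to 5 called genes of each other list, and the 10 exonic and 10 intronic bases with most factor tags (at most 1 per gene, none on chromosome 8). Other members are named where a count left few. Values of single members that the rule would name but that are missing from the text are not reported here. The filters on total tags, the coding-sequence count, the joint removal of shallow libraries and the windows at mRNA starts and snoRNA ends were chosen after seeing the data.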

Additional observations from a re-analysis of the deposited data

Results flagged for a closer look

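Processed pseudogenes of the family, which enter no comparison above, had a higher level in some factor libraries than in any Control library. The 1514 annotated pseudogenes, 454 of them with at least 1 tag, had 285, 257 and 379 CPM in the Control libraries, on only 2, 12 and 14 tags. Above the highest of these stood Alyref 1 with 615 CPM (50 tags), Alyref 3 with 451 (272), Nxf1 2 with 730 (87) and Nxf1 3 with 1266 (227). The counting error of the few Control tags was not set against these values. The other factor libraries, Alyref 2 with 241 CPM, Chtop with 298, 238 and 317 and Nxf1 1 with 123, did not exceed it. Groups of 3 were too small for a check on single libraries.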

How the results depend on the processing

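Of the single genes named, 534 recalculated values kept their direction and their side of the threshold, 114 kept the direction but passed it no longer and 0 reversed. With the filter by group, other settings changed the number of members called as follows. DESeq2 gave 2 for Chtop against Control and 5 for Alyref against Chtop. Exons and introns together gave 1 for Chtop against Control, 5 for Alyref against Chtop and 1 for Alyref against Nxf1. The filter on the total gave 1 and 5 against Control in Chtop and Nxf1 and 41, 20 and 51 for Alyref-Chtop, Alyref-Nxf1 and Chtop-Nxf1, and no filter gave 21, 9 and 41. All tags as library size gave 0, 1 and 3 of 4 tested. Bases exonic in every transcript gave 2 each for Alyref-Nxf1 and Chtop-Nxf1. In the exon to intron balance, Chtop-Nxf1 gave 1 with no filter and 2 with the filter on the total.

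With the filter on the total, Chtop against Control gave 3 by DESeq2, 0 on coding sequence and 0 without Nxf1 1 and Control 1. Nxf1 against Control gave 0 by DESeq2, 0 by all tags, 1 on coding sequence and 2 without those libraries. Alyref-Chtop gave 4 by DESeq2, 21 by all tags and 24 on coding sequence, and Alyref-Nxf1 gave 11 and 5 by the first 2. With protein-coding tags as the denominator the exonic shares were 0.584%, 0.230%, 1.35% and 0.924% and the intronic ones 0.318%, 0.247%, 0.355% and 0.323% in Alyref, Chtop, Nxf1 and Control. Weighting junctions by tags moved the Alyref window share to 34.2%. The causes were not tested, apart from the different number of members that a filter lets in.

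Deviations of same-numbered Alyref and Chtop libraries correlated at 0.130 to 0.191, which overlaps those of different numbers (-0.194 to 0.154). A pairing by replicate number was thus not established. With the number as a block Alyref-Chtop gave 3 calls with the filter by group and 41 with that on the total. Over all groups the numbers did not pair the libraries (same-numbered deviations correlated at -0.0437 to 0.191, median 0.0256, 18 pairs). With the replicate number as a block and the filter on the total, Nxf1 against Control gave 2 calls, and the balance of Chtop-Nxf1 gave 0. The block moved no other count of members called by over 1.5 times.

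Leaving out each library in turn, the filter by group gave 2 to 9 calls for Alyref-Chtop, 1 to 17 for Alyref-Nxf1, 8 to 19 for Chtop-Nxf1, 0 to 2 for Chtop against Control and 0 to 3 for Nxf1 against Control. The filter on the total gave 15 to 43, 1 to 26, 24 to 57, 0 to 1 and 0 to 7 in that order, and the balance of Chtop-Nxf1 gave 0 to 2. Without Chtop replicate 2 or Nxf1 replicate 2 the balance of Chtop against Nxf1 turned to 1 call in the opposite direction. Without the tags directly upstream of snoRNAs the ratio of snoRNA-bearing to other introns moved by more than the SD in each group, to 0.55, 0.82, 0.18 and 1.20 in Alyref, Chtop, Nxf1 and Control, and leaving out single libraries did not move it that far.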
